A study of Sus scrofa with 12 samples.

Results

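The genes of T cells, natural killer (NK) cells and intraepithelial lymphocytes were examined in the duodenal mucosa of pigs that differed in feed efficiency (FE), the yield of growth from feed. The set was a list of 37 gene symbols, matched to the annotation of an Affymetrix Snowball array, which names 13755 genes. Of the 37, 32 were on the array under these symbols. CD5, CD6, ZAP70, TRAT1 and IL2RB had no match and are not analysed here. The groups were 6 pigs of high FE and 6 pigs of low FE, each with 3 males and 3 females, all 140 days old, with 1 array per pig. No breed, genotype or further treatment is given in the labels. High FE pigs 1 to 3 and low FE pigs 1 to 3 were males, and pigs 4 to 6 of each group were females. The samples hold tissue, so lymphocyte RNA was measured as part of the RNA of the tissue. In such bulk samples, fewer lymphocytes and less RNA per lymphocyte cannot be told apart.

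T cells recognise antigen through a receptor whose signal is carried by the CD3 chains and the zeta chain CD247, with CD4 or CD8 as coreceptor. The small intestine holds many lymphocytes between its epithelial cells. In pigs, as in other mammals, most of these intraepithelial cells carry CD8, and many hold granules with granzymes and perforin. CCR9, the receptor for the chemokine CCL25, guides lymphocytes to the small intestine, and the integrin of ITGAE and ITGB7 binds E-cadherin on epithelial cells.

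All levels below are log2 values as deposited, with 1 unit a 2-fold change in signal, and each gene is given by the brightest of its probe sets. Levels are compared between pigs and not between genes, since probe sets differ in brightness. Of the 32 genes, 31 passed the filter on low values, which was set on the mean over all 12 arrays. All 31 lay above the array's own median background on all 12 arrays. KLRD1, the CD94 chain of NK receptors, lay below it on all 12, with a mean of 1.36, and was not tested. Medians of the background probe sets ranged from 2.16 to 2.53 over the arrays. Single background probe sets averaged up to 7.62, so a value above these medians does not by itself show a transcript.

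Between FE groups, 0 of the 31 genes passed an adjusted p of 0.05 in limma with Benjamini-Hochberg adjustment over 33405 probe sets. On the whole array the share was 0%. At an unadjusted p under 0.05, 2 genes differed by their brightest probe sets, PTPRC and ICOS, both higher in high FE, against 5.99% of all probe sets. Of all 64 probe sets of the gene set that were kept, 6 were at such a p, including a GZMB probe set that was lower in high FE. The shares of all probe sets at such a p were 2.65% higher and 3.34% lower in high FE. The difference was above 0 for 25 of the 31 genes, against 41.8% of all 12267 named genes, each taken at its brightest probe set. Their median difference was 0.08, beside -0.04 for all genes. The high FE and low FE pigs overlapped in all 31 genes, and groups that did not overlap made up 0.26% of all probe sets. The balance of directions rested on few pigs. Without high FE pig 6, 11 of the 31 genes were higher in high FE and the median was -0.049, and without low FE pig 3, 15 were higher. With the level of the Brunner gland genes of each pig as a model term, 8 were higher, the median was -0.09 and the medians of the 5 roles ran from -0.28 to -0.0071. Of the genes at an unadjusted p under 0.05, PTPRC kept such a p whichever single pig was left out, and ICOS kept it only when low FE pig 1 or 6 was left out.

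**Figure D1:**
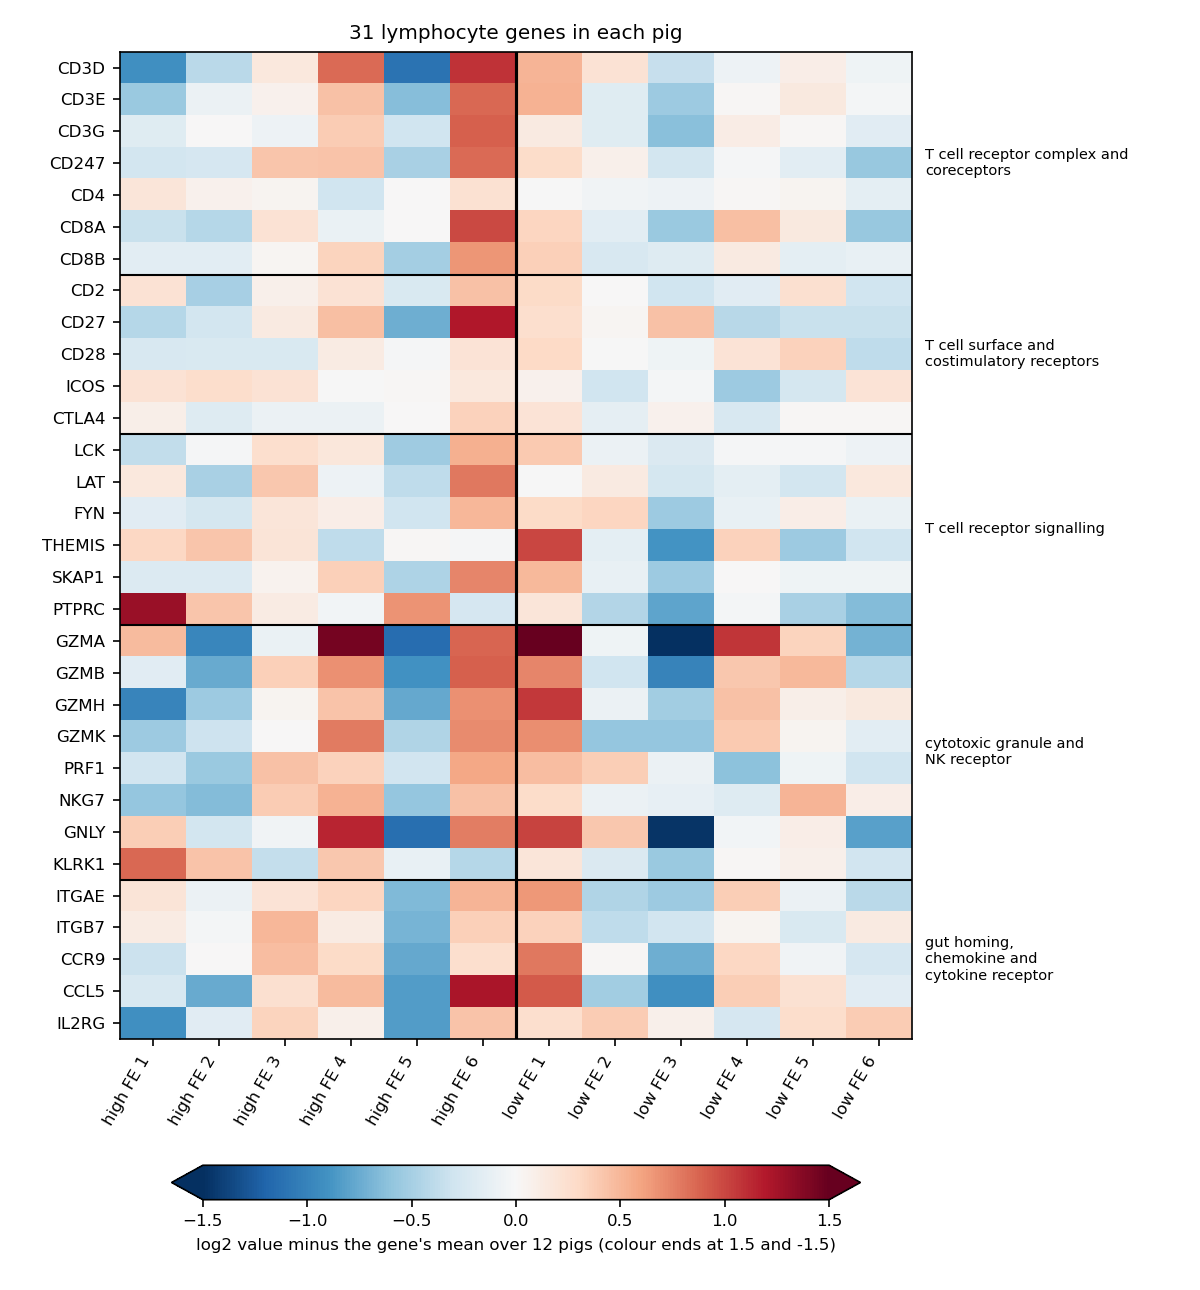
Deviation of each of the 31 genes from its own mean over 12 pigs (colour, log2), with genes in rows by role and pigs in columns, high FE left of the black line and low FE right of it. High FE pig 6 is above the mean in most rows, high FE pig 5 and low FE pig 3 are below it in most rows, and no row separates the FE groups.

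The 7 genes of the T cell receptor complex and its coreceptors showed no difference between FE groups beyond the spread among pigs. CD3E, a signalling chain of the receptor, had a lowest, median and highest value of 7.29, 7.92 and 8.79 in high FE pigs, against 7.39, 7.92 and 8.45 in low FE pigs. High FE pigs 6 and 5 held the highest and the lowest value of all 12 pigs, so the low FE pigs lay inside the range of the high FE pigs. The difference was 0.03 ± 0.25 (SE), with an interval of 95% from -0.52 to 0.57 (limma adjusted p = 0.986). Its sign turned when single pigs were left out (-0.13 to 0.20). The second CD3E probe set differed by 0.48 (limma unadjusted p = 0.056) and did not follow the brightest (r = -0.02).

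CD8A, the alpha chain of CD8, spanned 5.96, 6.34 and 7.37 in high FE pigs and 5.81, 6.38 and 6.84 in low FE pigs. High FE pig 6 was the highest, while the medians of the groups lay close together. The difference was 0.12 ± 0.25 (SE; limma adjusted p = 0.910). CD4, the coreceptor of helper T cells, spanned 8.15, 8.49 and 8.67 in high FE pigs and 8.29, 8.41 and 8.48 in low FE pigs. High FE pig 4 was the lowest and high FE pig 6 the highest of all, and the difference of 0.08 ± 0.11 (SE) did not pass (limma adjusted p = 0.863). By its brightest probe set CD4 varied little, with an SD of 0.14 over the 12 pigs, at percentile 3.92 of the SDs of all named genes kept. The second CD4 probe set had an SD of 0.18, differed by 0.04 and hardly followed the brightest (r = 0.22).

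CD3G and CD247 had the lowest p-values of this role. CD3G, another CD3 chain, had 4.95, 5.22 and 6.15 in high FE pigs and 4.63, 5.17 and 5.40 in low FE pigs, a difference of 0.24 ± 0.19 (SE; limma adjusted p = 0.771). CD247 had 7.09, 7.66 and 8.42 in high FE pigs and 7.01, 7.49 and 7.85 in low FE pigs, a difference of 0.22 ± 0.24 (SE; limma adjusted p = 0.811). High FE pig 6 was the highest pig for both genes, and the groups overlapped. The second CD3G probe set differed by -0.14 and did not follow the brightest (r = -0.21), while the third differed by 0.30 (r = 0.85). The second CD247 probe set differed by 0.03 (r = 0.81). By the brightest probe sets, CD3D, with a difference of -0.11, was the only gene of the role with a lower mean in high FE. The other CD3D probe sets differed by 0.08, 0.23 and 0.51. CD8B differed by 0.07. The median difference of the 7 genes was 0.08.

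Of the 5 measured surface and costimulatory receptors, ICOS was at an unadjusted p under 0.05. ICOS, a receptor of activated T cells, had 4.47, 4.67 and 4.75 in high FE pigs and 3.94, 4.33 and 4.69 in low FE pigs. Low FE pigs 4, 2 and 5 were the lowest 3 of the 12, and low FE pig 6 reached the level of the high FE pigs. The difference was 0.29 ± 0.13 (SE), with an unadjusted p of 0.048 and a limma adjusted p of 0.753. ICOS had 3 probe sets. The second in brightness differed by -0.50, and their mean differed by -0.06.

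CD28, the costimulatory receptor for CD80 and CD86, had 3.10, 3.21 and 3.53 in high FE pigs and 2.95, 3.43 and 3.67 in low FE pigs. Low FE pigs held both the lowest and the highest value, and the difference was -0.13 ± 0.14 (SE; limma adjusted p = 0.819). CTLA4, an inhibitory receptor for the same ligands, differed by 0.02, CD2, an adhesion receptor, by 0.08, and CD27, a receptor of the TNF receptor family, by 0.12, with adjusted p-values from 0.922 to 0.974 in limma. The genes CD28, CTLA4 and ICOS are neighbours in the gene order of the pig assembly Sscrofa11.1. Their values nevertheless differed in which pigs were high, as the heat map of deviations shows.

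Signalling genes downstream of the receptor were the role with the highest median difference, 0.11, and all 6 measured genes had a higher mean in high FE. PTPRC, the phosphatase CD45 carried by nucleated cells of the blood lineage, had the lowest p of all 31 genes. Its values were 6.72, 7.24 and 8.27 in high FE pigs, against 6.19, 6.51 and 7.15 in low FE pigs. High FE pigs 1, 5 and 2 were the highest 3 of the 12, and low FE pig 1 lay above 3 of the high FE pigs. The difference was 0.74 ± 0.25 (SE), with an interval of 95% from 0.19 to 1.28, an unadjusted p of 0.012 and a limma adjusted p of 0.753.

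The second PTPRC probe set gave a difference of 0.40 with an unadjusted p of 0.020, and correlated with the brightest at r = 0.88 over the 12 pigs. The PTPRC level ran against the array background, with r = -0.88 over 12 arrays, -0.91 among the 6 high FE arrays and -0.89 among the 6 low FE arrays. In a model that also held the background of each array, the difference was 0.39 (unadjusted p = 0.029). With the Brunner gland level as a term, it was 0.57 (unadjusted p = 0.050). CD45 marks B cells and myeloid cells as well as T cells. In the marker lists of those cells, high FE pigs had the higher mean for 2 of 12 B and plasma cell genes. The same held for 4 of 13 macrophage, monocyte and dendritic cell genes, against 41.8% of all named genes. Which cells carried the PTPRC difference was not tested.

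The other signalling genes did not differ beyond the spread among pigs. THEMIS, a protein of T cell receptor signalling in thymocytes, had 4.12, 4.60 and 4.92 in high FE pigs and 3.60, 4.27 and 5.50 in low FE pigs. Low FE pigs 3 and 1 held the lowest and the highest value, so the high FE pigs lay within the range of the low FE pigs. The difference was 0.18 ± 0.27 (SE; limma adjusted p = 0.869). In the model with the background of each array it was -0.07. By their brightest probe sets, the kinases LCK and FYN and the adaptors LAT and SKAP1 differed by 0.01 to 0.13, with adjusted p-values from 0.876 to 0.992 in limma. The second LCK probe set differed by 0.63 (limma unadjusted p = 0.107) and hardly followed the brightest (r = 0.15). The other FYN probe sets differed by -0.09 to 0.37.

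Several cytotoxic granule genes spread widely among the pigs, and none passed the test between FE groups. GZMB, a granzyme that triggers cell death in target cells, had 7.67, 8.67 and 9.47 in high FE pigs and 7.57, 8.63 and 9.32 in low FE pigs. High FE pig 6 was the highest and low FE pig 3 the lowest, and the 6 upper values came from high FE pigs 3, 4 and 6 and low FE pigs 1, 4 and 5. The difference was 0.03 ± 0.36 (SE), with an interval of 95% from -0.76 to 0.83 (limma adjusted p = 0.988). Leaving out single pigs moved it between -0.14 and 0.28. One of the 3 GZMB probe sets, named here after its values were seen, differed by -0.93 (unadjusted p = 0.0058) and did not follow the brightest (r = -0.12), while the other followed it at r = 0.97.

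GZMH, known in human as a granzyme of cytotoxic cells, had 4.77, 5.52 and 6.45 in high FE pigs and 5.24, 5.89 and 6.83 in low FE pigs. High FE pigs 1, 5 and 2 were the lowest 3, and low FE pig 1 was the highest. The difference was -0.38 ± 0.31 (SE; limma adjusted p = 0.773). KLRK1, the activating receptor NKG2D, had 3.24, 3.82 and 4.53 in high FE pigs and 3.11, 3.57 and 3.85 in low FE pigs. High FE pigs 1, 2 and 4 were above all 6 low FE pigs, while high FE pig 6 was the second lowest of the 12. The difference was 0.27 ± 0.23 (SE; limma adjusted p = 0.777).

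GZMA and GNLY are described for their wide range, a choice made after their values were seen. GZMA, another granzyme, had 5.50, 6.83 and 8.08 in high FE pigs and 3.73, 6.78 and 8.35 in low FE pigs. Its SD of 1.30 over 12 pigs lay at percentile 99.6 of all named genes kept, and low FE pigs 3 and 1 were its extremes. GNLY, the antimicrobial NK-lysin first isolated from pig intestine, had 5.40, 6.69 and 7.67 in high FE pigs and 5.06, 6.56 and 7.54 in low FE pigs, with low FE pig 3 and high FE pig 4 at its ends. The FE differences were 0.19 for GZMA and 0.27 for GNLY (limma adjusted p = 0.957 and 0.884). The granzymes are related genes, GZMA lies beside GZMK and GZMB beside GZMH in the gene order of Sscrofa11.1, and cross-hybridisation between their probes was not tested.

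The remaining genes of this role were PRF1, the pore-forming perforin, GZMK, a further granzyme, and NKG7, a granule membrane protein. Their differences were 0.08, 0.06 and -0.16, with adjusted p-values from 0.867 to 0.966 in limma. Of the 8 measured genes of the role, 6 were higher on average in high FE pigs, and the median over the 8 was 0.07. It was -0.26 with the Brunner gland level as a model term and -0.14 when the probe sets of each gene were averaged.

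**Figure D2:**
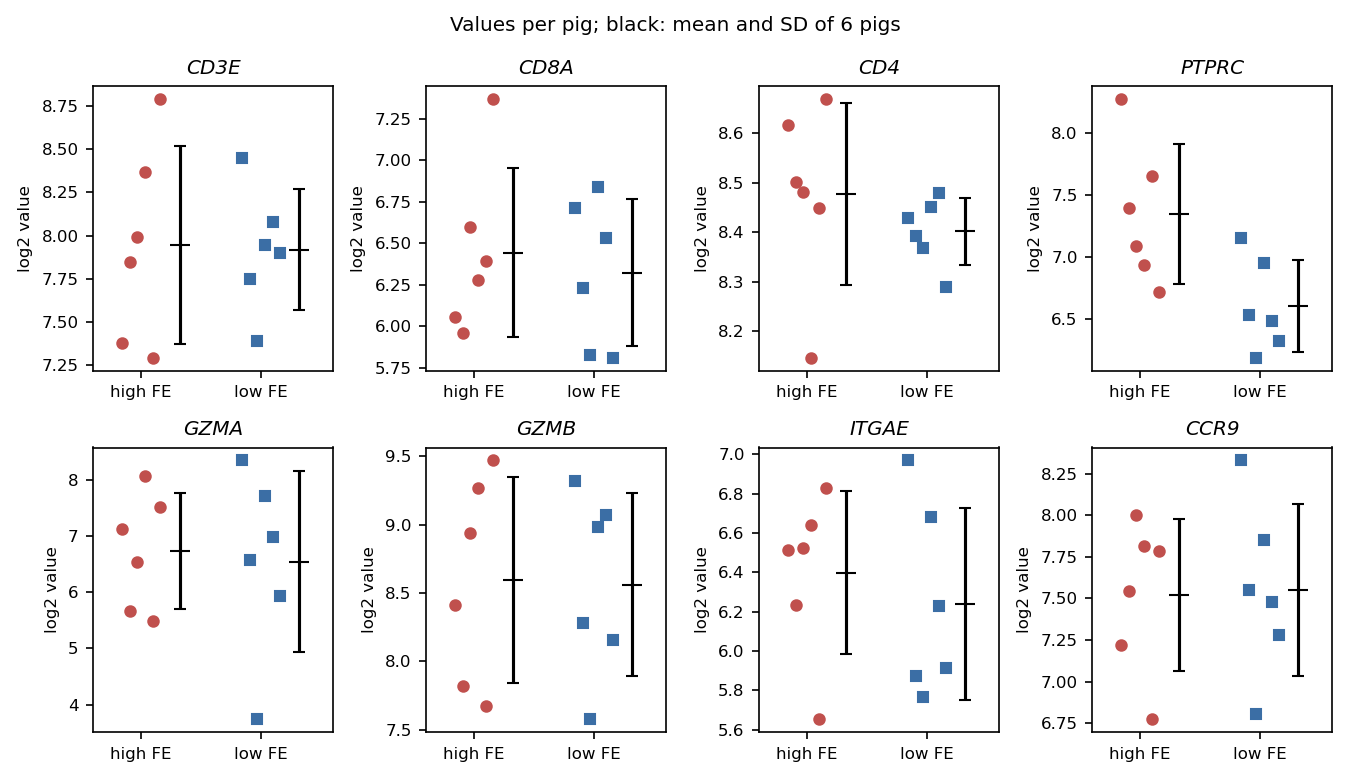
Log2 values of 8 genes in each pig, high FE (circles) left and low FE (squares) right, with the mean and SD of 6 pigs in black; each panel has its own axis. The groups overlap in every panel, PTPRC has the highest offset between groups, and GZMA has the widest spread, from 3.73 to 8.35.

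None of the 5 measured gut homing, chemokine and cytokine receptor genes passed the test between FE groups. ITGAE, the alpha E chain that marks intraepithelial T cells, had 5.65, 6.52 and 6.83 in high FE pigs and 5.77, 6.07 and 6.97 in low FE pigs. High FE pig 5 was the lowest of all, the other 5 high FE pigs lay above low FE pigs 2, 3, 5 and 6, and low FE pig 1 was the highest. The difference was 0.16 ± 0.25 (SE), with an interval of 95% from -0.38 to 0.70 (limma adjusted p = 0.876). ITGB7, its beta chain, differed by 0.13 (limma adjusted p = 0.878).

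CCR9 had 6.77, 7.66 and 8.0 in high FE pigs and 6.81, 7.52 and 8.33 in low FE pigs. High FE pig 5 and low FE pig 3 were the lowest, low FE pig 1 was the highest, and the difference was -0.03 ± 0.27 (SE; limma adjusted p = 0.987). IL2RG, the gamma chain shared by the receptors of several interleukins, had 7.67, 8.54 and 9.01 in high FE pigs and 8.33, 8.84 and 8.97 in low FE pigs. High FE pigs 1 and 5 stood below the other 10 pigs. The difference was -0.36 ± 0.24 (SE; limma adjusted p = 0.757), and it was -0.07 in the model with the background of each array. CCL5, a chemokine made by activated T cells, differed by 0.03 (limma adjusted p = 0.988).

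**Figure D3:**
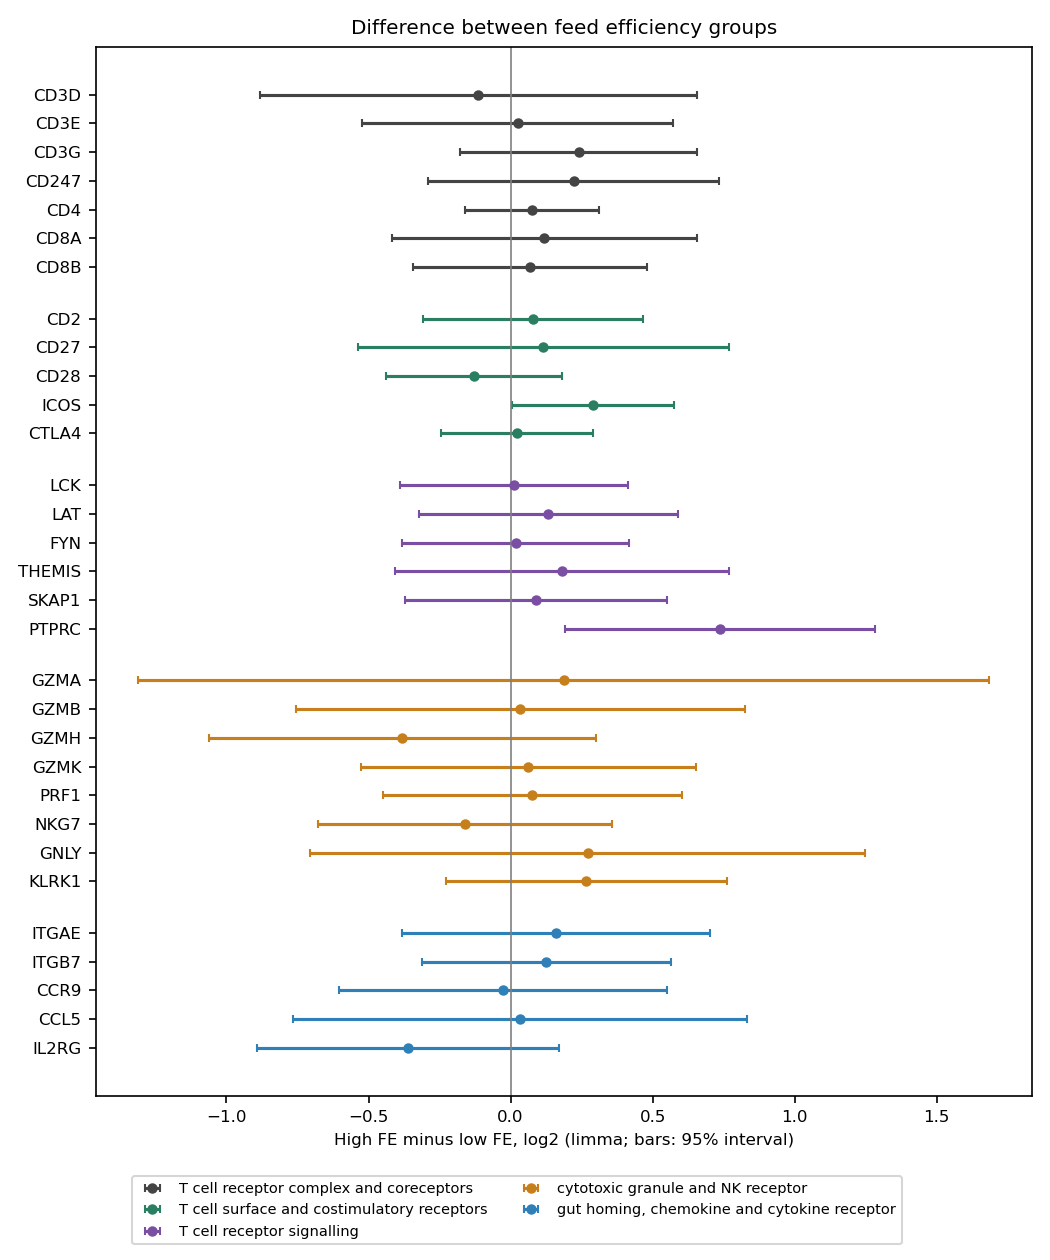
Difference between high FE and low FE for each of the 31 genes (points, log2, high FE minus low FE) with its interval of 95% from limma (bars), coloured by role. All intervals include 0 except those of PTPRC and ICOS, which start at 0.19 and 0.00 and are not adjusted for the number of probe sets.

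Pigs of the same FE group differed widely, and most of the genes varied together from pig to pig. The mean of CD3D, CD3E, CD3G and CD247 in each pig, called the CD3 mean here, served as a measure of T cell signal. It was 6.72, 7.02, 7.35, 7.73, 6.57 and 8.13 in high FE pigs 1 to 6, and 7.57, 7.19, 6.76, 7.22, 7.23 and 7.0 in low FE pigs 1 to 6. High FE pig 6 was the highest and high FE pig 5 the lowest, a span of 2.94-fold within 1 group, and the low FE pigs lay between them.

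Of the 31 genes, 19 followed the CD3 mean over the 12 pigs at r above 0.7, with a CD3 gene left out of the mean it was set against. The median r of all 31 genes was 0.76, beside 0.02 over 12240 other named genes, of which 3.02% exceeded 0.7. These are descriptions over 12 points from 12 arrays, which share tissue composition and array quality. Of the 19, 15 stayed above 0.7 without the 2 pigs farthest from the median, and CD8A, CD27, PRF1 and ITGAE did not. The number of the 31 genes above 0.7 was 21 among the 6 high FE pigs and 20 among the 6 low FE pigs.

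SKAP1 (r = 0.95), CD3E (0.95), LCK (0.94) and CD8B (0.93) followed the CD3 mean most closely. Their rank correlations lay between 0.84 and 0.96. Among cytotoxic genes, GZMK and GZMB reached 0.86 and GZMH 0.84, and among homing genes, CCL5 reached 0.88 and CCR9 0.77. By their brightest probe sets, CD4 (0.03), ICOS (-0.01), THEMIS (0.16), KLRK1 (-0.14) and PTPRC (-0.28) did not follow it. Other probe sets, such as the second of CD4, were not set against the CD3 mean. For PTPRC the correlation was -0.88 among high FE pigs and 0.89 among low FE pigs, and for KLRK1 it was -0.46 among high FE pigs and 0.93 among low FE pigs. With the array background, PTPRC had r = -0.91 among high FE and -0.89 among low FE arrays, and the CD3 mean 0.99 and -0.78. The part of the background in these opposite signs was not tested.

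**Figure D4:**
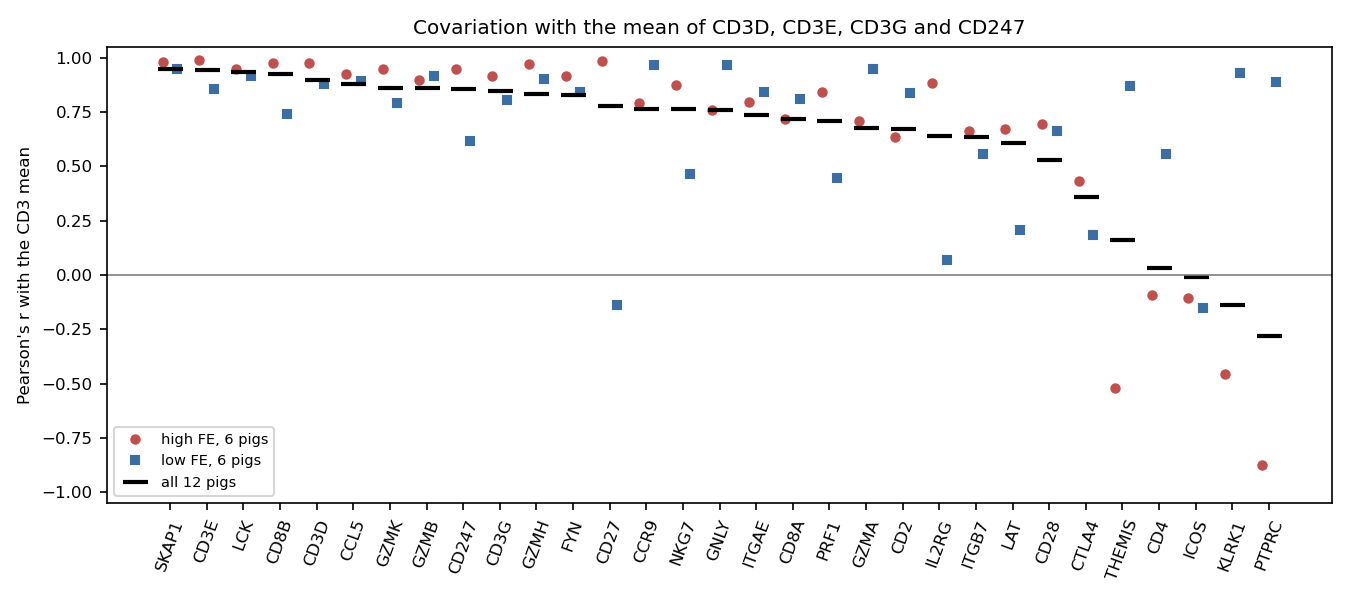
Pearson's r of each of the 31 genes with the CD3 mean, over the 6 high FE pigs (circles), the 6 low FE pigs (squares) and all 12 pigs (dashes), in order of the last. From SKAP1 at 0.95 to PRF1 at 0.71 the genes lie above 0.7 over all pigs, and PTPRC, KLRK1, THEMIS, CD4 and CD27 have opposite signs in the FE groups.

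Array background moved with this signal in a different way in each group. The correlation of the CD3 mean with the background median was 0.99 among the 6 high FE arrays, -0.78 among the 6 low FE arrays and 0.37 over all 12. For CD3E alone the values were 1.00 among high FE arrays and -0.54 among low FE arrays. The part of array background in the spread of these genes was not tested.

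Outside the 37 genes, the 12 named genes most like the CD3 mean over the 12 pigs were IRF1, NUP37, PEPD, MAP4K1, CD53, TMC5, SLC6A4, CXCR3, MPP1, RFXANK, CST7 and CD101, with r from 0.94 for IRF1 to 0.90 for CD101. IRF1 is a transcription factor of interferon responses, CXCR3 a chemokine receptor of activated T and NK cells, and CST7 a cystatin of cytotoxic cells, while CD53 is a tetraspanin and MAP4K1 a kinase of white blood cells. SLC6A4 is the serotonin transporter, which intestinal epithelial cells carry, and PEPD a peptidase of many tissues. CCL25, the ligand of CCR9, came at rank 18 with r = 0.88 and is named here after its value was seen.

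The cytotoxic genes also varied with the epithelial markers from pig to pig. The mean of the 8 cytotoxic and NK genes correlated with the mean of 13 epithelial markers at r = 0.94 and a rank correlation of 0.99 over 12 pigs, at 0.90 among high FE pigs and 0.98 among low FE pigs. Without the 2 pigs farthest from the median epithelial level it was 0.87. The corresponding r was 0.84 for the gut homing role and 0.70 for the CD3 mean, and the last was 0.54 without the 2 farthest pigs. The difference between these correlations was not tested.

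GZMB (0.94), GZMA (0.93), GNLY (0.89) and ITGAE (0.88) were the genes closest to the epithelial level. In all, 11 of the 31 genes exceeded 0.7 with it, against 2.89% of all named genes. The epithelial mean itself spanned 9.30 to 9.95 in high FE pigs and 9.19 to 10.12 in low FE pigs. Low FE pig 3 was lowest for both the epithelial and the cytotoxic mean, and low FE pig 1 was highest for both.

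**Figure D5:**
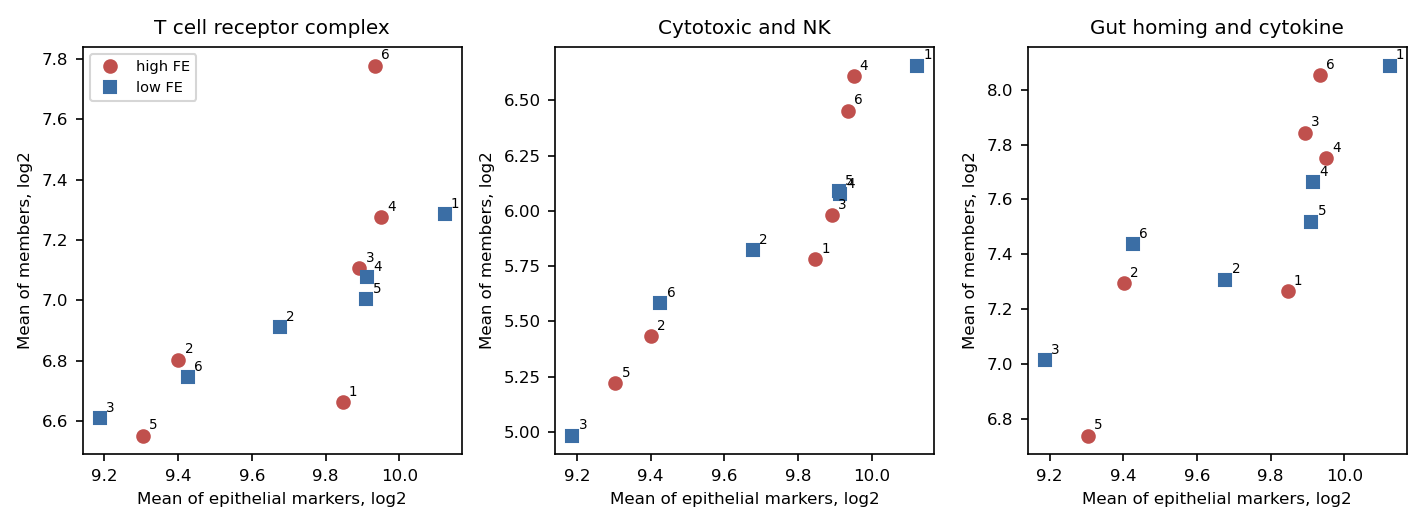
Mean log2 value of the T cell receptor, cytotoxic and NK, and gut homing genes (vertical) against the mean of 13 epithelial markers (horizontal) in each pig, high FE as circles and low FE as squares, labelled with the pig number. The points of the cytotoxic panel rise most evenly, from low FE pig 3 to low FE pig 1, and high FE pig 6 stands above the others in the receptor panel.

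No marker gene of the other tissue components passed the adjusted threshold between FE groups in limma, and their levels are given as a description. Brunner glands are the mucous glands under the duodenal mucosa. Their list was MUC6, TFF2, PGC, LYZ, GKN1, GKN2, MUC5AC, TFF1, AQP5 and PIGR. LYZ is also in the macrophage, monocyte and dendritic cell list, so the list is not specific to these glands. The 8 measured genes of the list were all lower on average in high FE pigs (median -0.66). Their summed level per pig, as a mean, spanned 7.13 to 9.96 in high FE pigs and 8.04 to 11.55 in low FE pigs, with low FE pig 3 highest. The cytotoxic mean ran against it (r = -0.70 over 12 pigs, -0.57 without the 2 farthest). Of 12 smooth muscle genes, 10 were lower on average in high FE pigs, and 5 were lower at an unadjusted p under 0.05 in limma. On the whole array, 3.34% of probe sets were lower at such a p, and 41.8% of named genes had a higher mean in high FE. The marker lists were chosen with earlier results of these data known, so their counts are not independent tests. The mean of the smooth muscle genes spanned 7.44 to 7.83 in high FE pigs and 7.45 to 8.29 in low FE pigs. The mean of pancreatic acinar markers was 7.01 in low FE pig 6 and no higher than 4.05 in the other low FE pigs. With the Brunner gland level as a model term, 0 of the 31 genes were at an unadjusted p under 0.05 between FE groups, against 4.98% of all probe sets. PTPRC (limma unadjusted p = 0.050) and ICOS (0.053) lay just above that limit. The part of the other markers in the results was not tested.

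With the CD3 mean as a model term, which sets the genes against the T cell signal of the same pig, 3 genes were at an unadjusted p under 0.05 and 0 passed the adjusted threshold in limma. The share of all probe sets was 9.84%. GZMH differed by -0.49 (unadjusted p = 0.0067, limma adjusted p = 0.481, in a range from 0.481 to 1.000 over all alternatives) and IL2RG by -0.43 (unadjusted p = 0.029), both lower in high FE. PTPRC was the third. This model was chosen after the data were seen.

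Between males and females, 0 of the 31 genes passed the adjusted threshold in limma and 0 were at an unadjusted p under 0.05. The shares of all probe sets were 0.021% and 4.54%. All pigs in the later run of identifier numbers were females, so sex and this run cannot be fully told apart. Of the 31, 9 had a higher mean in males, against 51% of all named genes. That number was 18 without high FE pig 6, 15 when high FE pig 2 was left out, 15 when low FE pig 3 was left out, and 6 without high FE pig 5. It was 20 with the CD3 mean, 16 with the Brunner gland level and 15 with the epithelial level as a model term. The median of male minus female was -0.26 for the T cell receptor role and -0.30 for the cytotoxic role, while the medians of the other roles lay between -0.02 and -0.01. Over the 31 genes it was -0.02, beside 0.00 for all probe sets. Leaving out single pigs moved the receptor median between -0.40 (low FE pig 1 left out) and -0.040 (high FE pig 6 left out), and the cytotoxic median between -0.46 (low FE pig 1 left out) and -0.13 (low FE pig 3 left out). With the CD3 mean as a model term they were 0.020 for the receptor role and -0.099 for the cytotoxic role. CD3D, CD3E, CD3G and CD247 form that term, so their differences cancel out in this model by construction. The receptor value, and in part the count of 20, therefore cannot show whether the sex difference depends on T cell signal. CD8A had 5.83, 6.14 and 6.71 in males and 5.81, 6.46 and 7.37 in females, a difference of -0.31 ± 0.25 (SE; limma adjusted p = 0.975). All 6 males lay within the range of the females. GZMA showed the widest difference, -0.62 ± 0.69 (SE; limma adjusted p = 0.979).

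In the test of the FE difference between the sexes, 0 of the 31 genes passed the adjusted threshold and 0 were at an unadjusted p under 0.05 in limma. The shares of all probe sets were 0.00299% and 3.27%. PRF1 came closest, with a difference between high and low FE of -0.38 in males and 0.54 in females (interaction -0.92 ± 0.42 SE, unadjusted p = 0.053). CD27 followed with -0.43 in males and 0.67 in females (interaction -1.10 ± 0.53 SE, unadjusted p = 0.063). Within males PTPRC differed by 0.96 (unadjusted p = 0.021, the only 1 of the 31, against 5.61% of all probe sets), and within females by 0.52 (unadjusted p = 0.177). Within females 0 of the 31 were at an unadjusted p under 0.05, against 3.67% of all probe sets, and within either sex 0 passed the adjusted threshold in limma, against 0%. The interaction for PTPRC was 0.44 ± 0.51 (SE), so these values were not shown to differ.

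The other genes of the lymphocyte pathways gave 1 of 109 tested genes at an unadjusted p under 0.05, a smaller share than the 5.99% of all probe sets. The 5 further lists held 142 genes of T cell signalling, lymphocyte transcription, helper and memory function, NK cells and gut ligands, of which 109 were tested. Of these, 60 were higher and 49 lower on average in high FE pigs, where 41.8% of all named genes were higher. Their median was 0.03, and 0 passed the adjusted threshold in limma. The gene at an unadjusted p under 0.05 was TNFSF15, a cytokine that costimulates T cells, with -0.51 ± 0.13 (SE; unadjusted p = 0.0016, limma adjusted p = 0.753). The lists were chosen with earlier results of these data known, so this p-value is not an independent test.

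In T cell signalling, 18 of 24 genes had a higher mean in high FE, with 0 of the 24 at an unadjusted p under 0.05. ARHGAP15, a GTPase-activating protein, differed by 0.38 ± 0.19 (SE) and TXK, a kinase of T cells, by 0.37 ± 0.18 (SE). Among transcription factors, 7 of 18 had a higher mean, with ETS1 at 0.34 ± 0.20 (SE) and IKZF1 at -0.24 ± 0.17 (SE). Helper, checkpoint and memory genes were 13 higher and 13 lower, where the interleukin 7 receptor IL7R had 0.44 ± 0.24 (SE) and the adhesion receptor CD44 had -0.42 ± 0.20 (SE). NK genes were 11 higher and 10 lower, with the granule proteoglycan SRGN at 0.17 ± 0.13 (SE) and the adaptor HCST at -0.28 ± 0.18 (SE). None of these 8 genes passed, with adjusted p-values from 0.753 to 0.766 in limma.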

How the data were processed

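Total RNA of duodenal mucosa was made into labelled cDNA and hybridised to Affymetrix Snowball arrays, per the labels. The authors deposited log2 values per probe set, a scale read from the values, and the submitters' processing notes list GCOS 1.1.1. How background, normalization and summarization were handled is not given in the sources used here. Array medians lay between 3.83 and 3.91, correlations between arrays between 0.951 and 0.976, and the number of arrays limits precision.

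The 123 control probe sets were left out, and the median of 69 antigenomic ones per array measured background. Probe sets with a mean above the 30th percentile (2.37) were kept, 33405 of 47845. The test was limma (version 3.58.1, R 4.3.3), with lmFit, eBayes and Benjamini-Hochberg adjustment, and 0.05 was the threshold. FE and sex were terms of the main model. Means of the 4 combinations of both gave the interaction and the comparison of FE groups inside each sex. Low FE was subtracted from high FE, and female from male. The fits were tested on simulated data.

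Gene symbols came from the platform annotation, which can be old, and 35 of the 37 symbols were found in the RefSeq table of Sscrofa11.1, used for gene order only. Each gene took its brightest probe set. The members and lists were chosen with earlier results of these data known. Values were given for CD3E, CD8A, CD4, GZMB, ITGAE and CCR9, for members at an unadjusted p under 0.05 in any of the FE, sex or interaction tests, and for the 2 lowest FE p-values per role. In other pathway lists, genes at an unadjusted p under 0.05 for FE or otherwise the 2 lowest were named, and 12 genes most like the CD3 mean.

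Alternatives changed the filter, normalization, variance model, array weights, probe sets per gene, model terms and the set of pigs. Models with the CD3 mean or the Brunner gland mean as a term were chosen after seeing the data. The labels do not describe how the pigs were sampled beyond their identifiers, and p-values measure the spread between these 12 pigs.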

Additional observations from a re-analysis of the deposited data

Results flagged for a closer look

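LCK in low FE pig 1 stood apart from the other low FE pigs. Its log2 value was 7.44, and the nearest other low FE pig had 7.03. The gap made up 0.667 of the range of the 6 pigs, above Dixon's limit for 6 samples. Of 64 groups examined, 1 exceeded the limit, and chance gives about 1 in 20.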

How the results depend on the processing

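Of 40 results recomputed under 26 alternatives, 953 of 1030 values were classed as unchanged, 49 as moved and 28 as changed in sign. A change of sign was counted for single genes only. Medians of the roles or of all members were classed by their distance from the main value, whatever their sign. The median FE difference of all members went from 0.08 to -0.09 with the Brunner gland term and was classed as unchanged. No member passed the adjusted threshold for FE, sex or interaction under any of the alternatives. The cause of the changes was not tested. Over the alternatives, the share of all probe sets at an unadjusted p under 0.05 for FE ran from 3.39% (array background term) to 9.84% (CD3 term). Members at such a p for FE numbered 1 with trend and robust variance, the mean of all probe sets or the epithelial level as a term. The number of members at such a p was 0 with the Brunner gland term, and 1 to 2 when single pigs were left out. For sex this number was 0 to 2 without single pigs (2 without high FE pig 5). For the interaction it was 2 with array weights, the array background or the epithelial term, 1 with the CD3 term, 4 with the Brunner gland term, and 0 to 4 without single pigs (4 without high FE pig 5). Over all probe sets, those called for FE numbered 0 to 1 without single pigs (1 without low FE pig 4), for FE within females 0 to 1 (1 without low FE pig 6), for FE within males 1 with the epithelial term, for sex 3 with the run of identifier numbers in the labels as a term, and for the interaction 0 with the filter at the median, an ordinary linear model, array weights, or the array background, epithelial, identifier run, CD3 or Brunner gland term, and 0 to 1 without single pigs.

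The FE differences that changed sign were -0.066 (CD3 term) and -0.14 (Brunner gland term) for CD3E, -0.092 (Brunner gland term) for CD8A, -0.065 (mean of all probe sets) for ICOS, -0.072 (array background) and -0.025 (Brunner gland term) for THEMIS, -0.30 (mean of all probe sets), -0.086 (CD3 term) and -0.42 (Brunner gland term) for GZMB, -0.13 (Brunner gland term) for ITGAE and 0.085 (array weights) for CCR9. Without single pigs the ranges were -0.13 to 0.20 for CD3E, -0.053 to 0.24 for CD8A, -0.030 to 0.39 for THEMIS, -0.14 to 0.28 for GZMB and -0.20 to 0.14 for CCR9. CD3E is itself part of the CD3 mean, so its value with the CD3 term was constrained by construction. No paired analysis was possible because the labels give each pig its own identifier and no number shared between groups. Of 33 other probe sets of members kept, 11 followed the brightest at r above 0.7 and 13 lay under 0.3.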
